A study of Mus musculus with 12 samples.

Results

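The genes described here are 41 cell cycle and proliferation genes, 17 that act at the start of and during S phase and 24 that act in mitosis, chosen by symbol among the 24480 genes of the count tables. All 41 were found in both tables and all 41 passed the filter on low counts in both. RNA was sequenced from the dLGN, the thalamic nucleus that relays retinal input to the visual cortex, in 12 libraries at P0, each from 3 pooled animals. Mutants were *Sox2* flox/flox or *Nr2f1* flox/flox and carried *RORα*-Cre, in which Cre is expressed from the *Rora* locus and recombines in postmitotic cells of the sensory thalamus. *Sox2* controls were *Sox2* flox/flox or *Sox2* flox/+ with no Cre, so that the loxP-flanked allele was common to mutants and controls. *Nr2f1* controls were *Nr2f1* flox/flox by their label, which names the Cre allele and also says no Cre, whereas the study's methods also give *Nr2f1* flox/+ animals among them; they were treated as Cre-negative, as in those methods. Each of the 4 groups had 3 libraries, and mutants were compared with the controls of their line.

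A dividing cell licenses its replication origins in G1, copies its DNA in S phase and separates the copies in mitosis, and the genes for each step are transcribed in waves. E2F factors drive the wave before S phase, and the DREAM, B-MYB and FOXM1 complexes control the wave before mitosis, largely through CCAAT boxes and an element called CHR. At birth, neurons of the mouse dLGN have left the cell cycle, and the dividing cells of the region are mostly glia and their progenitors, with vascular and meningeal cells. In bulk RNA, fewer dividing cells and less RNA per dividing cell cannot be told apart.

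Total counts lay between 39293465 and 50095344 per library. *Sox2* had 361 to 382 CPM (library-scaled counts after TMM normalization) in the controls of its line and 116 to 152 CPM in the mutants, and *Nr2f1* had 311 to 380 CPM in the controls of its own line and 101 to 151 CPM in the mutants. The labelled tissue had its thalamic markers, whose 9 genes summed to between 1656 and 2311 CPM in the 12 libraries.

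Promoter windows from RefSeq (GRCm38.p6, from 250 bases before to 50 after the annotated start) were found for 34 of the 41 genes. Both strands were searched for CCAAT, for the CHR letters TTTGAA and for the E2F letters TTCGCGC or TTGGCGC, and matches to the E2F letters can overlap each other. CHR letters were present in 15 of 20 mitosis genes (75%) and in 1 of 14 S phase genes (7.14%), compared with 20.2% of the 27025 gene symbols with windows. E2F letters showed the opposite order, in 6 of 14 S phase genes (42.9%) and 3 of 20 mitosis genes (15%), compared with 4.47% of all. CCAAT was present in 18 of 20 mitosis genes (90%) and 8 of 14 S phase genes (57.1%), compared with 41.1% of all. CCAAT and CHR occurred together in 15 of 20 mitosis genes (75%) and 1 of 14 S phase genes (7.14%), compared with 8.97% of all. A match is a description of letters, not of binding.

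Stretches of 30 bases are shown for the members of each phase with the smallest p in *Sox2* mutants, to set the letters of the mitotic promoters beside those of the S phase promoters. The 3 mitosis genes are *Mki67*, *Cenpf* and *Bub1b*, and the S phase genes are *Mcm6* and *Mcm3*. The next S phase gene, *E2f1*, had no match in its window. Each stretch is written 5′ to 3′ on the strand of its gene, and capitals mark the named match, which reads in reverse complement where it lies on the other strand.
Mki67 CHR (chr7:135716460-135716489, minus strand): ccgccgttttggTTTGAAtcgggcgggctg
Mki67 E2F (chr7:135716428-135716457, minus strand): gcgggcgagccTTGGCGCggaaccgcctag
Mki67 CCAAT (chr7:135716503-135716532, minus strand): tggccgcctggcCCAATcgcagcacttagc
Cenpf CHR (chr1:189688067-189688096, minus strand): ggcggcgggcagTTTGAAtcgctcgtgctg
Cenpf CCAAT (chr1:189688140-189688169, minus strand): ctctcgccatggCCAATgggcgtggaggct
Bub1b CHR (chr2:118598231-118598260, plus strand): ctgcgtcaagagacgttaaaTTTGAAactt
Bub1b CCAAT, other strand (chr2:118598086-118598115, plus strand): gctaggacaaccATTGGtccttgcacctca
Mcm6 E2F, other strand (chr1:128359730-128359759, minus strand): ggacgggtttgGCGCGAAgtagctcagctc
Mcm6 CCAAT, other strand (chr1:128359745-128359774, minus strand): gaaccgccattgATTGGacgggtttggcgc
Mcm3 E2F (chr1:20820263-20820292, minus strand): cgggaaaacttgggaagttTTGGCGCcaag
Mcm3 CCAAT (chr1:20820327-20820356, minus strand): tgaagtggttagCCAATcataacgcgtctc
The *Mki67* CHR match began 98 bases before the start used for its window, whereas those of *Cenpf* and *Bub1b* began 2 and 40 bases after theirs. *Mcm6* held 5 matches to the E2F letters and *Mcm3* held 2. The *Mki67* window also held 1 match to the E2F letters, 67 bases before that start, which lies inside the annotated gene.

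The levels of the 41 genes can be ordered after division by transcript length. In *Sox2* controls, *Pcna*, the sliding clamp of DNA polymerase, was the highest of the S phase genes at 37.4 CPM per kb, and *Cdc6*, which loads the MCM helicase, the lowest at 0.708 CPM per kb. *Ube2c*, a ubiquitin-conjugating enzyme of the anaphase-promoting complex, was the highest of the mitosis genes at 14.8 CPM per kb, and *Ttk*, a kinase of the spindle checkpoint, the lowest at 1.62 CPM per kb. The same genes were highest and lowest in *Nr2f1* controls, with *Pcna* at 29.9, *Cdc6* at 0.459, *Ube2c* at 11.5 and *Ttk* at 1.15 CPM per kb. The 2 tables were normalized separately, so levels of the 2 lines were not compared.

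In *Sox2* mutants, the estimates of 40 of the 41 genes lay above 0, and no gene was differentially expressed at FDR<0.01 (edgeR quasi-likelihood F-test, Benjamini-Hochberg adjusted over all 15602 genes tested). At this threshold 3.9% of all genes tested were upregulated and 4.19% downregulated, that is 608 and 653 genes. The study names the same test and threshold but reports more differentially expressed genes in both lines. Its calls for the 41 genes are not given here. The 24 mitosis genes had a median log2 fold change of 0.35, from 0.16 (*Birc5*) to 0.51 (*Prc1*), and 24 of 24 estimates were above 0. The 17 S phase genes had a median of 0.28, from −0.13 (*Ccne1*) to 0.51 (*E2f1*), and 16 of 17 were above 0. In a fit with the number in the library names as a block, the medians were 0.20 and 0.19, with 24 of 24 and 15 of 17 estimates above 0. That fit pairs CTRL_1 with MUT_1 and CTRL_3 with MUT_3. CTRL_2 and MUT_4, each alone in its block, add nothing to its estimates. CTRL_2 was the lowest control for 21 of 24 mitosis and 6 of 17 S phase genes, and MUT_4 the highest mutant for 18 of 24 and 13 of 17. In the fit without a block, the median over all genes tested was 0.00, with 7813 of 15602 above 0.

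Thresholds less strict than the study's gave more mitosis than S phase genes in *Sox2* mutants. The genes varied together between libraries, with CTRL_3 the highest control for 36 of 41 and MUT_4 the highest mutant for 31. A count of genes is therefore not a count of separate observations. At an unadjusted p below 0.05, 17 of 24 mitosis genes and 6 of 17 S phase genes were higher and none was lower, beside 18.7% of all genes tested that were higher. At FDR<0.05 the higher genes were 7 of 24 in mitosis (*Cenpf*, *Mki67*, *Bub1b*, *Prc1*, *Cdc20*, *Tpx2* and *Ccnb2*) and 2 of 17 in S phase (*Mcm6* and *Mcm3*), beside 10.4% of all genes. Every mutant library lay above every control library for 16 of 24 mitosis genes and 2 of 17 S phase genes (*Mcm6* and *Pcna*), beside 19% of all genes. Other tools gave calls at FDR<0.01, all higher in mutants: DESeq2 called 4 mitosis and 2 S phase genes (8.27% of all genes), and the likelihood ratio test of edgeR called 4 and 1 (8.32%).

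**Figure D1:**
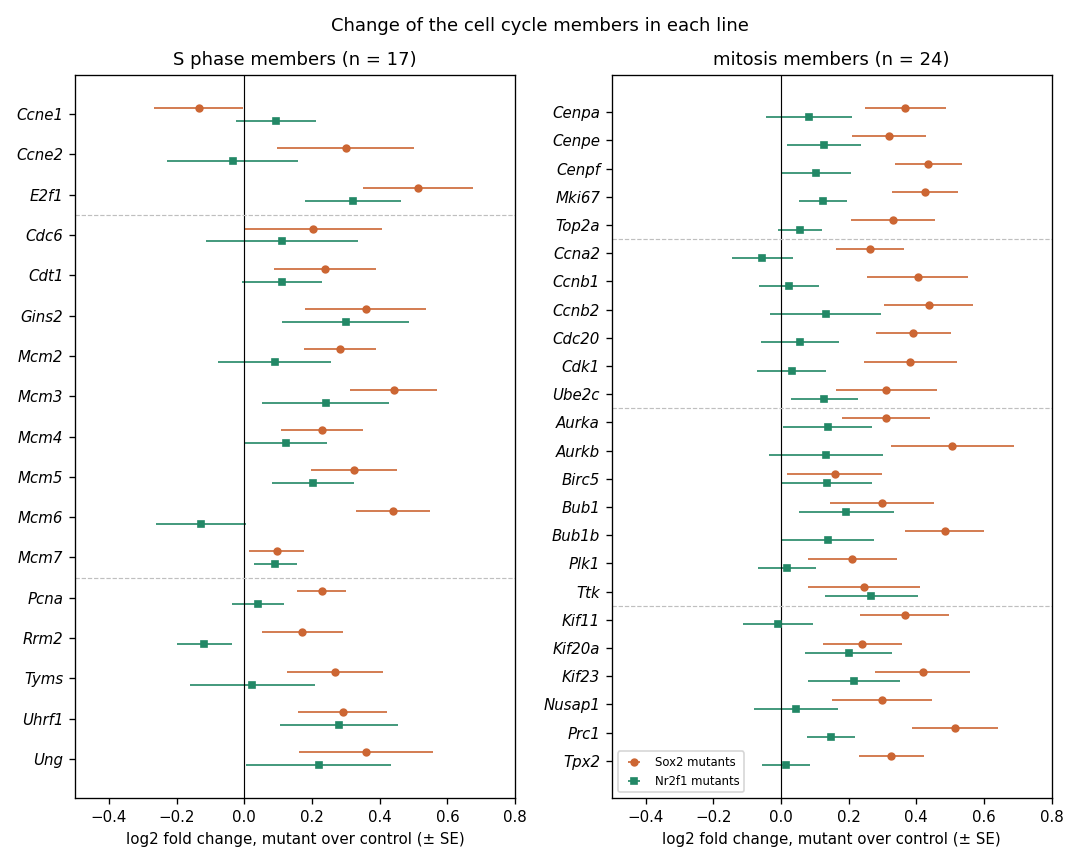
Log2 fold change of each of the 17 S phase and 24 mitosis genes (x axis, mutant over control, whiskers ± SE) in *Sox2* mutants (circles) and *Nr2f1* mutants (squares), with dashed lines between roles. Of the circles, 40 of 41 lie to the right of 0, from −0.13 to 0.51, and the squares lie from −0.13 to 0.32.

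Among the regulators of the G1 to S transition, *E2f1* and the cyclin E genes did not lie together. *E2f1*, the transcription factor that activates S phase genes, had 5.7, 6.44 and 8.02 CPM in the *Sox2* control libraries and 7.91, 10.3 and 10.5 CPM in the mutant libraries. The lowest mutant library lay just under the highest control, giving an estimate of 0.51 ± 0.16 on the log2 scale (SE; edgeR FDR = 0.0531). *Ccne1* and *Ccne2*, the cyclins that activate CDK2 before S phase, had log2 fold changes of −0.13 ± 0.13 and 0.30 ± 0.20. *E2f1* overlaps *Necab3* in the annotation, and the strand setting of the counting is not given in the sources used here.

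The 9 genes of origin licensing and the replicative helicase had a median log2 fold change of 0.28 in *Sox2* mutants, and 9 of 9 estimates were above 0. *Mcm6*, a subunit of the MCM helicase, had 19.7, 22.0 and 24.0 CPM in the control libraries and 25.8, 31.4 and 32.0 CPM in the mutant libraries. The groups did not overlap, with a log2 fold change of 0.44 ± 0.11 (edgeR FDR = 0.0212). *Mcm3* had 23.5, 24.8 and 32.2 CPM in controls and 31.9, 38.5 and 39.0 CPM in mutants, where the highest control lay among the mutants (log2 fold change 0.44 ± 0.13, edgeR FDR = 0.0396). *Mcm2* had 22.3, 23.6 and 27.6 CPM in controls and 26.6, 30.7 and 32.0 CPM in mutants (0.28 ± 0.11, edgeR FDR = 0.0915). For *Mcm2*, too, 1 control library lay within the mutant range. *Mcm5* had 22.3, 22.4 and 29.8 CPM in controls and 27.9, 31.2 and 34.1 CPM in mutants. *Cdc6* had 3.12, 3.05 and 3.63 CPM in controls and 3.02, 3.46 and 4.8 CPM in mutants, and its groups overlapped. The lowest estimate of this role was that of *Mcm7* (0.10 ± 0.08).

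At the replication fork, *Pcna* had 53.9, 55.1 and 61.3 CPM in the *Sox2* controls and 63.9, 67.4 and 68.3 CPM in the mutants. The groups did not overlap, but the difference was small (log2 fold change 0.23 ± 0.07, edgeR FDR = 0.0543). *Uhrf1*, which carries DNA methylation through replication, had 24.1, 26.1 and 32.2 CPM in controls and 29.6, 32.2 and 39.0 CPM in mutants, with overlap. The other genes of this role, *Rrm2* and *Tyms* for nucleotide supply and *Ung* for the removal of uracil from DNA, had log2 fold changes of 0.17, 0.27 and 0.36, and each had an FDR above that of *Pcna*.

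Genes of mitotic entry and exit had a median log2 fold change of 0.39 in *Sox2* mutants, with 6 of 6 estimates above 0. For 4 of 6 every mutant library lay above every control library, beside 19% of all genes tested. The 6 genes comprise *Cdk1*, the kinase that drives entry into mitosis, its cyclin partners *Ccna2*, *Ccnb1* and *Ccnb2*, and *Cdc20* and *Ube2c*, which act in the destruction of cyclins. *Ccnb2* and *Cdc20* had the smallest FDR of these (0.0445 and 0.0352). *Ube2c*, the highest mitosis gene per kb, had 12.8, 12.4 and 17.6 CPM in controls and 18.8, 15.3 and 19.1 CPM in mutants, and its groups overlapped through CTRL_3 (log2 fold change 0.31 ± 0.15, edgeR FDR = 0.167).

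The 7 mitotic kinase and spindle checkpoint genes had a median of 0.30. *Bub1b*, which encodes the checkpoint protein BUBR1, had 10.3, 10.2 and 12.1 CPM in the *Sox2* controls and 16.0, 13.5 and 16.0 CPM in the mutants. Every mutant library lay above every control (log2 fold change 0.48 ± 0.12, edgeR FDR = 0.0188). *Aurkb*, the kinase of the chromosomal passenger complex, had the largest estimate of this role (0.51 ± 0.18, edgeR FDR = 0.0785), whereas *Birc5*, the survivin subunit of the same complex, had the smallest of all mitosis genes (0.16 ± 0.14). *Ttk* had 4.48, 4.12 and 5.33 CPM in controls and 5.11, 4.87 and 6.51 CPM in mutants, with overlap. *Aurka*, *Plk1* and *Bub1*, a mitotic kinase each, lay between *Birc5* and *Bub1b*, from 0.21 to 0.31.

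Centromere and chromosome structure genes were the closest to one another, with 5 estimates between 0.32 and 0.44 in *Sox2* mutants. *Mki67*, which coats mitotic chromosomes and encodes the proliferation marker Ki-67, had 76.9, 62.3 and 77.6 CPM in controls and 94.6, 90.6 and 106 CPM in mutants. The groups were clear of each other (log2 fold change 0.42 ± 0.10, edgeR FDR = 0.0151). *Cenpf*, a kinetochore protein, had 30.5, 27.2 and 31.3 CPM in controls and 43.2, 34.9 and 42.2 CPM in mutants, again without overlap, and the smallest FDR of the 41 genes (0.44 ± 0.10, edgeR FDR = 0.0148). *Top2a*, the topoisomerase that untangles sister chromatids, had 55.2, 47.9 and 67.4 CPM in controls and 70.3, 64.6 and 79.3 CPM in mutants. Its control library CTRL_3 lay above the lowest mutant library (0.33 ± 0.12, edgeR FDR = 0.0876). *Cenpa*, the histone of centromeric chromatin, and *Cenpe*, a kinetochore motor, had log2 fold changes of 0.37 and 0.32.

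Among the 6 spindle and cytokinesis genes, the median was 0.35. *Prc1*, which bundles microtubules of the central spindle, had 19.2, 21.5 and 25.6 CPM in *Sox2* controls and 31.2, 27.5 and 35.8 CPM in mutants. This was the largest estimate of the mitosis genes (0.51 ± 0.13, edgeR FDR = 0.0209), without overlap of the groups, and *Prc1* overlaps *Rccd1* in the annotation. The kinesins *Kif11*, *Kif20a* and *Kif23* and the spindle proteins *Nusap1* and *Tpx2* had estimates from 0.24 to 0.42.

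The control library CTRL_3 lay nearest to the mutants. It was the highest *Sox2* control for 36 of 41 genes, 22 of 24 in mitosis and 14 of 17 in S phase, and its median ratio to the control mean was 1.14 for mitosis and 1.13 for S phase genes. The mutant library MUT_4 was the highest mutant for 31 of 41, with median ratios of 1.39 and 1.34. Without CTRL_3, 8 mitosis genes (*Mki67*, *Top2a*, *Ccna2*, *Bub1b*, *Cenpf*, *Kif23*, *Tpx2* and *Prc1*) and 2 S phase genes (*Mcm3* and *Mcm5*) were upregulated at FDR<0.01, beside 6.86% of all genes tested. Without MUT_3, *Cenpf* alone was upregulated, and without any of the other 4 libraries none of the 41 was called.

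**Figure D2:**
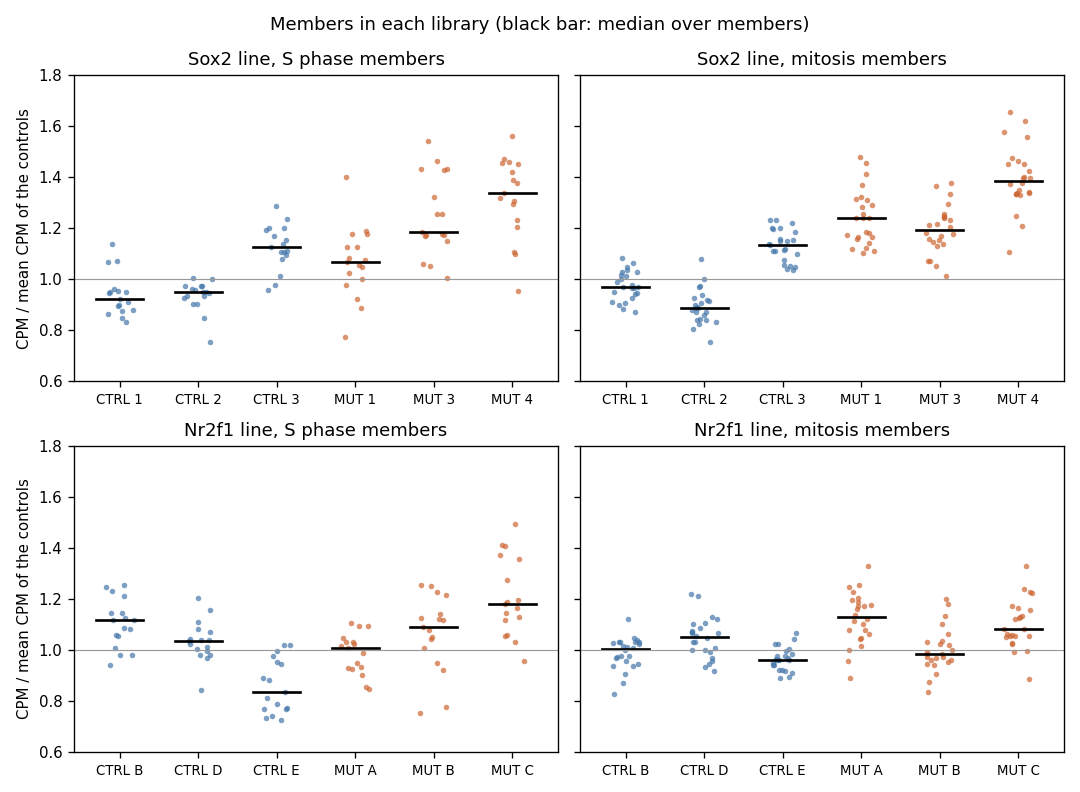
CPM of each gene divided by its mean in the controls of the same line (y axis), in the 6 libraries of the *Sox2* line (upper row) and the 6 of the *Nr2f1* line (lower row), with S phase genes on the left, mitosis genes on the right, controls in blue and mutants in orange, and a black bar at the median. In the *Sox2* line the medians of the mitosis genes are 0.97, 0.89 and 1.14 in controls and 1.24, 1.19 and 1.39 in mutants, while in the *Nr2f1* line the medians of controls and mutants interleave.

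Summed over the genes of a phase, the mitosis genes of the *Sox2* line had 418, 375 and 478 CPM in the control libraries and 537, 504 and 596 CPM in the mutant libraries. The sums did not overlap, at 423 ± 52.0 (SD, n = 3) and 546 ± 46.6 CPM, a ratio of 1.29. The S phase genes summed to 297, 306 and 363 CPM in controls and 349, 395 and 417 CPM in mutants. Here the groups overlapped through CTRL_3 and MUT_1 (322 ± 36.1 and 387 ± 34.7 CPM, ratio 1.20).

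In *Nr2f1* mutants the estimates were smaller. The median log2 fold change was 0.13 for mitosis genes (22 of 24 above 0) and 0.11 for S phase genes (14 of 17 above 0), beside a median of 0.01 over all 15600 genes tested. No gene of the 41 was differentially expressed at FDR<0.01 (edgeR), the threshold at which 1.22% of all genes were upregulated and 1.32% downregulated, and none at FDR<0.05 (3.65% of all genes higher). At an unadjusted p below 0.05, 1 of the 41 was higher (*E2f1*), beside 13.5% of all genes, and none was lower. DESeq2 and the likelihood ratio test called none. The groups did not overlap for 2 of 24 mitosis genes and 2 of 17 S phase genes, all higher in mutants, beside 14.4% of all genes.

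*E2f1* had 5.28, 5.05 and 4.31 CPM in the *Nr2f1* control libraries and 5.4, 5.98 and 6.88 CPM in the mutant libraries, which lay just clear of the controls (log2 fold change 0.32 ± 0.14, edgeR FDR = 0.198). *Mcm5* had 19.7, 18.3 and 14.7 CPM in controls and 18.1, 20.0 and 22.4 CPM in mutants. *Uhrf1* had 21.4, 17.1 and 13.8 CPM in controls and 18.0, 19.4 and 26.0 CPM in mutants. For both of these the groups overlapped, and the low control was the library CTRL_E, the lowest control for 12 of the 17 S phase genes. *Mcm2* had 19.9, 22.7 and 13.9 CPM in controls and 17.0, 21.2 and 21.9 CPM in mutants. *Pcna* had 47.9, 44.1 and 44.3 CPM in controls and 42.4, 50.9 and 46.7 CPM in mutants. *Mcm3* had 20.6, 16.6 and 12.05 CPM in controls and 15.6, 19.9 and 22.5 CPM in mutants. In these genes mutants and controls were interleaved, and the estimates of *Mcm2* (0.09 ± 0.17) and *Pcna* (0.04 ± 0.08) turned negative without CTRL_E and without MUT_B respectively. *Mcm6*, with 29.3, 30.1 and 30.6 CPM in controls and 25.4, 22.6 and 34.3 CPM in mutants, had a negative estimate (−0.13 ± 0.13). *Cdc6* had 2.64, 2.08 and 1.63 CPM in controls and 1.96, 2.64 and 2.24 CPM in mutants.

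Of the mitosis genes in this line, *Prc1* had 18.7, 18.1 and 17.5 CPM in the *Nr2f1* controls and 20.0, 20.0 and 20.3 CPM in the mutants (log2 fold change 0.15 ± 0.07, edgeR FDR = 0.237). *Ttk* had 3.16, 3.52 and 3.22 CPM in controls and 3.92, 3.97 and 4.04 CPM in mutants (0.27 ± 0.14, edgeR FDR = 0.269). These were the mitosis genes whose groups did not overlap. *Mki67* had 62.4, 61.0 and 58.1 CPM in controls and 67.3, 59.6 and 70.9 CPM in mutants (0.12 ± 0.07, edgeR FDR = 0.32). *Top2a* had 42.5, 44.9 and 43.4 CPM in controls and 46.9, 41.9 and 47.2 CPM in mutants (0.06 ± 0.07, edgeR FDR = 0.658). For *Mki67* and *Top2a* the library MUT_B lay within or below the controls. *Cenpf* had 27.2, 26.1 and 28.4 CPM in controls and 34.1, 25.7 and 28.0 CPM in mutants. *Bub1b* had 8.54, 11.96 and 8.89 CPM in controls and 10.2, 11.1 and 11.1 CPM in mutants. *Ube2c* had 10.8, 11.6 and 10.9 CPM in controls and 13.0, 10.9 and 12.5 CPM in mutants. The groups of these 3 genes overlapped.

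The summed mitosis level of the *Nr2f1* line was 343, 352 and 334 CPM in controls and 379, 339 and 374 CPM in mutants, a ratio of 1.06. The summed S phase level was 277, 264 and 231 CPM in controls and 247, 270.2 and 300.3 CPM in mutants, also a ratio of 1.06. In both phases a mutant library lay among the controls.

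**Figure D3:**
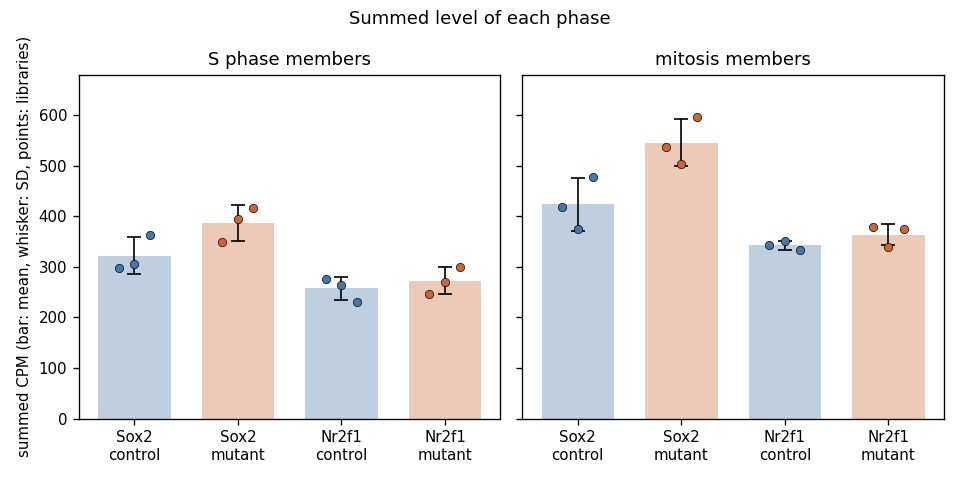
Summed CPM of the 17 S phase genes (left) and the 24 mitosis genes (right) in the 4 groups, with bars at the mean, whiskers of 1 SD and a point for each of 3 libraries. The mitosis sums of *Sox2* mutants (504 to 596 CPM) all lie above those of their controls (375 to 478 CPM), and the other 3 pairs of groups overlap.

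The difference between the mutants (log2 fold change of the *Sox2* line minus that of the *Nr2f1* line) was tested in a fit over the 12 libraries. It was not significant at FDR<0.01 for any of the 41 genes (edgeR, lowest FDR 0.131, for *Mcm6*), while 1.44% of the 15989 genes tested passed. The median difference was 0.30 on the log2 scale for mitosis genes (23 of 24 above 0) and 0.14 for S phase genes (16 of 17 above 0), beside −0.01 over all genes. At an unadjusted p below 0.05, 5 mitosis genes (*Mki67*, *Ccna2*, *Cenpf*, *Tpx2* and *Prc1*) and 1 S phase gene (*Mcm6*) differed, all with the higher change in *Sox2* mutants, beside 7.59% of all genes in that direction. For *Mcm6* the difference was 0.57 ± 0.19 and for *Mki67* 0.31 ± 0.13. DESeq2 and the likelihood ratio test gave no call for this difference at FDR<0.01 among the 41.

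Genes of 4 further cell cycle lists were tested in the same fits. At FDR<0.01, 3.9% of all genes tested were upregulated and 4.19% downregulated in *Sox2* mutants. In *Nr2f1* mutants these shares were 1.22% and 1.32%. Of 31 other S phase genes, 24 estimates were above 0 in *Sox2* mutants, none was upregulated at FDR<0.01 and 1 was downregulated, and in *Nr2f1* mutants 24 were above 0 and none was called. Of 36 other G2 and mitosis genes, 31 estimates were above 0 in *Sox2* mutants (median 0.26) and 23 in *Nr2f1* mutants (median 0.06), with no call in either line. Of 19 G1 cyclins, kinases and pocket proteins, 14 and 13 were above 0, with 1 downregulated in *Sox2* mutants. Of 7 CDK inhibitors, 6 were tested and 2 were downregulated in *Nr2f1* mutants, none in *Sox2* mutants.

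The downregulated S phase gene was *Cdca7*, a zinc finger protein that recruits the chromatin remodeller HELLS. It lies at chr2:72476187-72486892 (GRCm38.p6). It had 57.1, 58.7 and 56.1 CPM in *Sox2* controls and 16.3, 25.8 and 21.0 CPM in mutants, far apart, and fell by 1.45 on the log2 scale (SE 0.14, edgeR FDR = 1.97e-04). In the *Nr2f1* line it had 64.3, 50.8 and 49.2 CPM in controls and 59.8, 60.4 and 51.9 CPM in mutants, with overlapping groups. *Cdca7* is a target of E2F factors and MYC in dividing cells, and its direction in *Sox2* mutants was opposite to that of 40 of the 41 genes.

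*E2f3*, a further activating E2F factor, had 31.6, 29.7 and 26.3 CPM in *Sox2* controls and 19.7, 21.6 and 22.2 CPM in mutants (log2 fold change −0.47 ± 0.10, edgeR FDR = 0.00900). The groups did not overlap, whereas *E2f1* had a positive estimate in the same libraries. The call of *E2f3* was lost under upper quartile normalization and without CTRL_1, CTRL_2, MUT_1, MUT_3 or MUT_4, with FDR between 2.11e-04 and 0.0430 over the alternatives. In *Nr2f1* mutants the estimate was −0.03 ± 0.11, and the difference between the mutants did not pass (edgeR FDR = 0.151).

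The downregulated CDK inhibitors of *Nr2f1* mutants were *Cdkn1b*, encoding p27, and *Cdkn1c*, encoding p57, which hold cells out of the cell cycle and are expressed in postmitotic neurons. *Cdkn1b* had 65.3, 57.8 and 60.1 CPM in *Nr2f1* controls and 42.3, 47.6 and 42.9 CPM in mutants (log2 fold change −0.46 ± 0.07, edgeR FDR = 0.00481). *Cdkn1c* had 141, 127 and 137 CPM in controls and 105, 108 and 95.3 CPM in mutants (−0.40 ± 0.06, edgeR FDR = 0.00526). Neither gene's groups overlapped. In *Sox2* mutants their estimates were −0.15 ± 0.07 and −0.26 ± 0.11 and did not pass, and the differences between the mutants did not pass (edgeR FDR = 0.114 and 0.688). The FDR of *Cdkn1b* ranged from 3.64e-07 to 0.0303 over the alternatives and that of *Cdkn1c* from 1.20e-06 to 0.0284. Both calls were lost without CTRL_B, CTRL_D, CTRL_E, MUT_A or MUT_C, each left out in turn, and that of *Cdkn1c* also in the fit over 12 libraries.

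**Figure D4:**
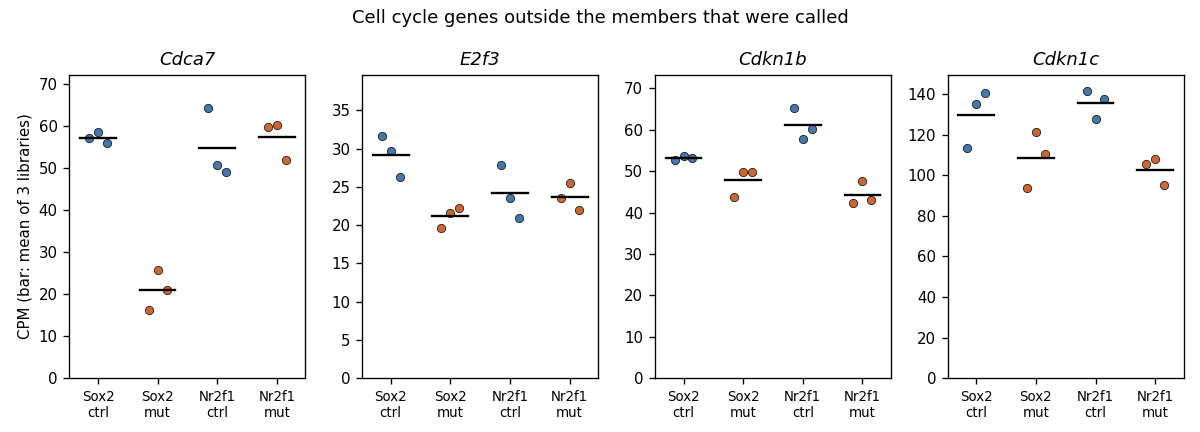
CPM in each library (points; bars at the mean of 3) of the 4 cell cycle genes outside the 41 that were called in a line. *Cdca7* stands at 16.3 to 25.8 CPM in *Sox2* mutants and at 56.1 to 58.7 CPM in their controls, mutants and controls of the *Nr2f1* line overlap, and *Cdkn1b* and *Cdkn1c* are lower in *Nr2f1* mutants than in their controls.

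In the *Sox2* line the summed markers of several other cell types were, like the mitosis sum, higher in every mutant library than in every control. Over all genes tested 3.9% were upregulated and 19% lay without overlap in this direction. Of 8 neural progenitor markers tested, 1 (*Egfr*) was upregulated at FDR<0.01, and the 9 listed genes summed to 264 to 315 CPM in controls and 323 to 417 CPM in mutants. *Neurog1*, a defining gene of thalamic neurogenic progenitors, was at 0 or below 0.05 CPM in the 12 libraries. Of 8 astrocyte and radial glia markers 6 were upregulated, with sums of 1714 to 2120 and 2649 to 3060 CPM. Of 8 markers of the oligodendrocyte lineage 1 was upregulated (618 to 745 and 759 to 897 CPM), and of 8 microglial markers 7 were upregulated (98.7 to 113 and 215 to 248 CPM). Of 8 markers of GABAergic neurons, which do not divide, 1 was upregulated, 8 of 8 estimates were above 0, and the sums were 113 to 157 and 182 to 237 CPM. The sums of these 5 lists did not overlap between the groups. Those of the thalamic glutamatergic markers (1656 to 2071 and 1703 to 1771 CPM) and of the neuronal markers (5460 to 6400 and 5381 to 5809 CPM) overlapped. Of 9 thalamic glutamatergic markers 1 was upregulated and 4 downregulated, and of 6 neuronal markers 1 was downregulated, beside 4.19% of all genes downregulated. The part of these cell types in the values of the 41 genes was not tested.

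The library CTRL_3 was also the highest control for the progenitor, astrocyte, oligodendrocyte, microglial, endothelial, pericyte and meningeal sums and the lowest for the neuronal sum. Its meningeal fibroblast markers summed to 1799 CPM, compared with 897 and 900.0 CPM in the other controls, and mutants had 1377 to 3123 CPM. No marker of endothelial cells, pericytes or meningeal fibroblasts was called in *Sox2* mutants, and their sums overlapped. In each of these lists, however, 6 of 6 estimates lay above 0, beside 7813 of 15602 over all genes tested. Their summed ratios of mutants over controls were 1.33, 1.35 and 1.71. In the *Nr2f1* line the progenitor sums overlapped (222 to 259 and 255 to 290 CPM, none of 8 called). The astrocyte sums did not (1464 to 1499 and 1586 to 1792 CPM, 1 of 8 called). Nor did the oligodendrocyte sums (519 to 551 and 566 to 605 CPM, 1 of 8 called) or the microglial sums (76.9 to 89.3 and 98.7 to 129 CPM, none of 8 called). Over all genes, 1.22% were upregulated and 14.4% lay without overlap. The meningeal, GABAergic, endothelial and pericyte sums overlapped and none of their markers was called. Their ratios of mutants over controls were 1.89, 1.41, 1.37 and 1.24, with 6 of 6, 8 of 8, 6 of 6 and 5 of 6 estimates above 0.

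**Figure D5:**
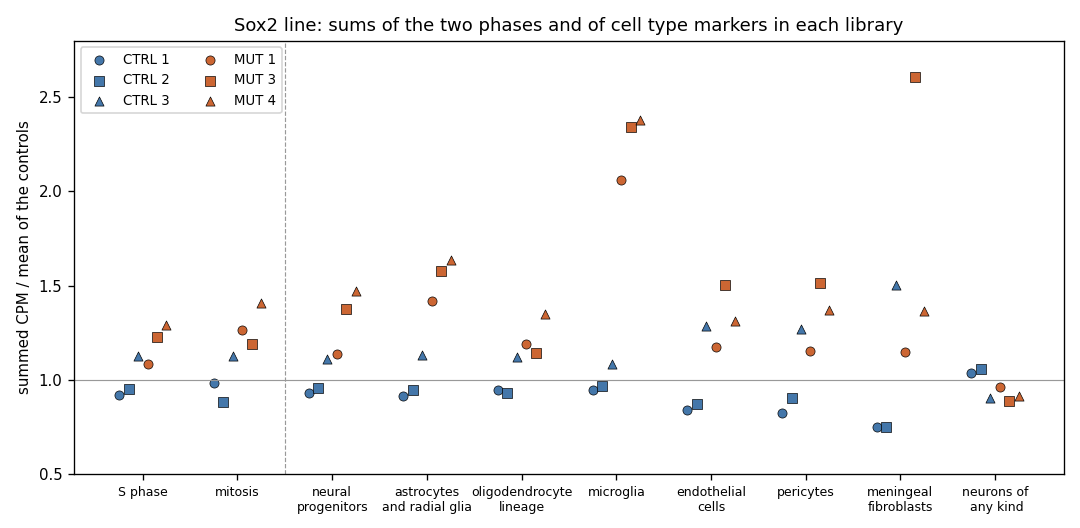
Summed CPM of the S phase and mitosis genes and of 8 marker lists in the 6 libraries of the *Sox2* line, each divided by the mean of the 3 controls (y axis), with controls in blue, mutants in orange and one symbol per library. CTRL_3 (blue triangle) is the highest control in all but the neuronal list, and the microglial sums of the mutants stand farthest above 1 as a group.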

How the data were processed

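Per the study's methods, the authors used STAR to align the reads to RefSeq mouse transcripts and RSEM for quantification, and deposited expected counts per gene without normalization, 1 table for each line (build mm10 per the labels). Here the expected counts were rounded (7.77% were not whole), filtered with filterByExpr (minimum count 10, minimum total count 15), TMM-normalized and tested in edgeR 4.0.16 (R 4.3.3) by its quasi-likelihood F-test, mutants against the controls of their line, with FDR adjusted over all genes tested and called below 0.01. The difference between the mutants was the interaction in a fit over 12 libraries. Columns name the group of each library. CPM per kb used the longest GENCODE transcript of each gene with a RefSeq match, not the annotation of the counting. Other lengths could change the order of genes that lie close. Levels are mean ± SD over 3 pools, and with 3 against 3 an exact permutation test of 1 gene cannot give a two-sided p below 0.1. The tests were checked on simulated counts.

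The 41 genes and the gene lists, taken from general knowledge, were chosen with earlier results of these data known. Values in each library are given for the 3 genes of smallest p per line and phase, for *Mki67*, *Top2a*, *Pcna* and *Mcm2*, and for the highest and lowest per kb in controls; *Prc1* in *Sox2* mutants and single members named by role were added after their values were seen. Of the other cell cycle lists, genes called in a line are named; cell type markers are counted. Alternatives were other filters, upper quartile normalization, DESeq2 1.42.0, the likelihood ratio test, FDR below 0.05, one fit over 12 libraries, a replicate block and leaving out each library. Of the 41 genes, 12 overlap another gene of the tables. Promoter sequences are those of RefSeq (GRCm38.p6), with 7 of the 41 genes not used there.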

Additional observations from a re-analysis of the deposited data

Results flagged for a closer look

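*Cdca7* was the gene of the 41 and of the further cell cycle lists whose change differed between the mutants in a direct test. The log2 fold change of the *Sox2* line minus that of the *Nr2f1* line was −1.51 (SE 0.19, edgeR FDR = 5.70e-04), with 3 of 3 *Sox2* mutant libraries below all controls of their line. Over 17 alternatives the difference lay between −1.67 and −1.35 and passed FDR<0.01 in 17 of them, with FDR between 4.05e-12 and 0.00309. Groups had 3 libraries, so no library was tested as an outlier. The study itself lists *Cdca7* among its most downregulated genes of *Sox2* mutants and does not mark it as changed in *Nr2f1* mutants.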

How the results depend on the processing

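Counts of upregulated genes in *Sox2* mutants changed with the setting. Beside 0 of 24 mitosis genes as reported, 1 was called with no filter on low counts (3.91% of all genes), 2 with upper quartile normalization (4.8%), 4 with DESeq2 (8.27%), 4 with the likelihood ratio test (8.32%), 3 in one fit over 12 libraries (6.28%), 7 at FDR<0.05 (10.4%), and 0 to 8 when 1 library was left out. Beside 0 of 17 S phase genes, 2 were called with DESeq2, 1 with the likelihood ratio test, 2 at FDR<0.05, and 0 to 2 when 1 library was left out. A block for the replicate number of the columns left CTRL_2 and MUT_4 of the *Sox2* line each alone, adding nothing to the estimates. With this block, which pairs CTRL_1 with MUT_1 and CTRL_3 with MUT_3, 0 mitosis and 0 S phase genes were called (5.9% of all genes), and the medians were 0.20 and 0.19. Deviations from the group means correlated at 0.23 and 0.22 in these 2 pairs and at 0.27 between CTRL_2 and MUT_1. In the *Nr2f1* line the groups share 1 letter, and no block could be fitted. Under upper quartile normalization the median of all genes moved to 0.04. The counts of downregulated genes, those in *Nr2f1* mutants and those for the difference between the mutants stayed at 0 under every alternative run. The summed levels (log2 ratios) moved by less than 1 SD, between 0.28 and 0.47 for mitosis and 0.21 and 0.37 for S phase in *Sox2* mutants, and between 0.06 and 0.13 and 0.00 and 0.15 in *Nr2f1* mutants, when 1 library was left out. In *Nr2f1* mutants the estimates with 1 library left out ranged from −0.026 (without MUT_B) to 0.106 for *Pcna* and from −0.087 (without CTRL_E) to 0.245 for *Mcm2*; the cause was not tested. Depth did not remove any of the 41 genes, and the spread between 3 pools limits these tests.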

Other observations

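Symbols starting with *Hist1h*, *Hist2h*, *Hist3h* or *Hist4h* numbered 69. Most are replication-dependent histone genes, whose transcripts are made in S phase and mostly lack a poly(A) tail. The list also holds a pseudogene (*Hist3h2bb-ps*). Of the 69, 17 passed the filter in the *Sox2* line and 12 in that of *Nr2f1*. Whether the transcripts counted were made in S phase was not tested. At FDR<0.01, 0 were called in either line (edgeR), while at an unadjusted p below 0.05 there were 4 higher and 2 lower in *Sox2* mutants and 2 higher in *Nr2f1* mutants. Over all genes tested in the *Sox2* line, 18.7% were higher and 2543 of 15602 lower at that p. In the *Nr2f1* line 13.5% were higher. *Hist1h1c* had 0.904, 1.94 and 2.02 CPM in *Sox2* controls and 3.04, 3.66 and 6.11 CPM in mutants, without overlap (edgeR FDR = 0.0196). *Hist3h2ba* lay the other way, with 27.6, 30.8 and 30.9 CPM in controls and 25.2, 19.3 and 22.1 CPM in mutants (edgeR FDR = 0.0229).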
